A study of Mus musculus with 18 samples.

Results

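Smarca2 and Smarca4, the genes of BRM and BRG1, are the pair of alternative ATPase subunits that drive the SWI/SNF (BAF) chromatin remodelling complexes. Their transcripts were assayed in cultures of mesenchymal stem cells from inguinal fat of FVB mice whose age was 1 month, 3 months, 6 months, 12 months or 24 months. Both genes were chosen by symbol, which gave 2 of the 64 genes and 4 of the 117 gene spots of a focused array of Polycomb and Trithorax group genes, with 2 spots for each. In that order of age there were 4, 3, 3, 3 and 2 samples, none of them treated or genetically modified per the labels, and 3 samples were hybridised to 2 arrays, giving 18 arrays. All cells had been cultured within the 5th passage, so every value describes cultured cells. The labels name a mouse for each sample but not whether numbered samples are separate animals, so p-values measure the spread between these samples only. The age comparison asks whether either ATPase, or the balance between them, differs with the age of the donor.

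A SWI/SNF complex holds 1 of these ATPases at a time, and uses ATP to slide or eject nucleosomes so that DNA becomes accessible. In the fly, their single counterpart, brahma, is a Trithorax group gene that counteracts Polycomb silencing. In the mouse Smarca4 is required early in embryonic development, while animals without Smarca2 are viable, and the share of complexes built on each ATPase is known to shift as cells stop dividing and differentiate.

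Both transcripts were found in nearly every culture. Smarca2 was called present by the authors on both spots of all 18 arrays, 36 of 36 spots. Smarca4 was called present on 34 of 36 spots and in 14 of 15 samples. The exception was sample 3 of 12 months, where both Smarca4 spots were called absent at signals of 8720 and 9137. That array was also the dimmest for Smarca2, with 21401 and 26407. Signal here is the mean pixel value of a spot, on a scanner scale that ends at 65535. The 2 plasmid control spots, which carry no mouse gene, read 3871 and 5305 on the same array and averaged 4263 to 10332 over the 18 arrays.

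The identity of the cells could be checked only in part. None of the 9 listed stromal markers and none of the 4 adipocyte markers is on the array. Of the markers of other cells, 3 of 7 listed for blood, 1 of 5 for endothelium and 1 of 3 for epithelium are on the array. Itgb2, Nckap1l and Ctsg (blood) and Darc (endothelium) were detected in 0 of 15 samples, and Krt17 (epithelium) in 1. In bulk RNA, fewer cells of a type and less RNA per cell cannot be told apart.

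The 18 arrays fall into 2 sets by their names and their order in the deposited sheets, and no label says what the sets are. The second set holds 6 arrays and the first 12. Samples of 1 month were measured in both sets and those of 3 and 6 months in the first alone. Of the 12-month arrays, 1 is in the second set and 3 are in the first, and both 24-month arrays are in the second. The median gene signal of an array ran from 8286 to 33357, and precision is limited by how many arrays there are.

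The spots of Smarca2 were bright and followed the sets. Averaged over its spots, Smarca2 read 23904 to 47540 on the 6 arrays of the second set, against 55872 to 61367 on the 12 arrays of the first. The 2 sets did not overlap. On the first set the values stood at 85.3% to 93.6% of the end of the scale, and they spanned only 0.14 on the log2 scale between the brightest and the dimmest array. On the second set they spanned 0.99. There sample 3 of 12 months read 23904 and the other arrays 41434 to 47540, so that span rests on the 1 dim array.

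The authors' mark called bleeding, read here as a saturation mark, was set on both Smarca2 spots of 3 arrays, all in the first set. These were the arrays of sample 5 of 1 month (61522 and 61213), sample 6 of 6 months (61494 and 60845) and the first array of sample 2 of 12 months (60734 and 60608). No Smarca2 spot of the second set carried the mark. How far the end of the scale narrowed differences in Smarca2 among first-set samples was not tested.

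The spots of Smarca4 lay in the middle of the scale and never carried the saturation mark. Averaged over its spots, Smarca4 read 8928 to 32476 on the second set, against 17026 to 43296 on the first, and the sets overlapped. Within the first set Smarca4 spanned 1.35 on the log2 scale. The brightest was the first array of sample 8 of 1 month, with 45067 and 41526, and the dimmest was sample 7 of 6 months, with 16929 and 17124.

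**Figure D1:**
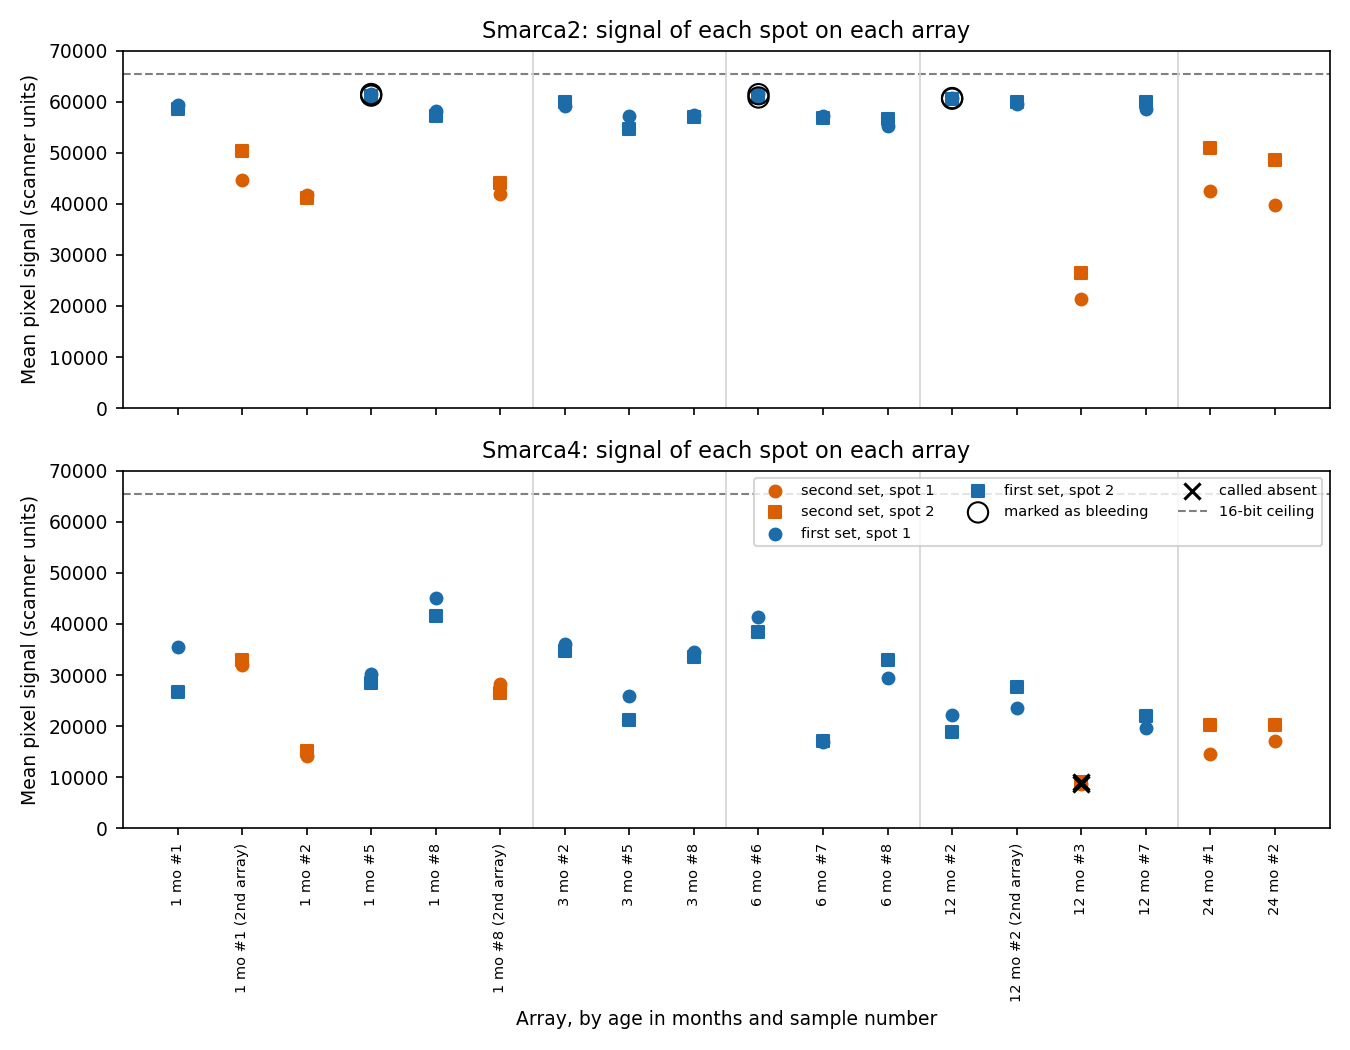
Mean pixel signal of each spot (y axis, scanner units) on each array (x axis, by age and sample number) for Smarca2 above and Smarca4 below, with the second set in orange, the first in blue and the end of the 16-bit scale dashed. Smarca2 spots read 21401 to 50945 on second-set arrays and 54612 to 61522 on first-set arrays, and the 2 Smarca4 spots called absent are those of sample 3 of 12 months.

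The 2 spots of a gene on an array show how well a single reading repeats. For Smarca2 the median gap between them was 0.218 on the log2 scale on the second set, against 0.017 on the first. The first-set Smarca2 spots lay near the end of the scale, and how far this narrowed their gap was not tested. For Smarca4 it was 0.096 on the second set and 0.136 on the first, and the widest gap on any array was 0.482. On the second set the second spot was brighter than the first for each gene on 5 of 6 arrays, and on the first set on 4 of 12.

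For comparison across arrays, signals were quantile normalised and averaged to 1 log2 level per sample. Smarca2 stood at 15.59, 15.41, 15.72 and 15.19 in samples 1, 2, 5 and 8 of 1 month. At 3 months it stood at 15.66, 15.65 and 15.62 in samples 2, 5 and 8, and at 6 months at 15.71, 15.70 and 15.58 in samples 6, 7 and 8. The 3-month and 6-month levels, all from the first set, were the most even.

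At 12 months Smarca2 stood at 15.69, 15.11 and 15.67 in samples 2, 3 and 7, and at 24 months at 15.56 and 15.41 in samples 1 and 2. The low 12-month level is that of sample 3, the dim second-set array. Every older age overlapped the range of the 1-month samples.

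The means of Smarca2 were 15.48 ± 0.23 at 1 month (SD; n = 4, 3, 3, 3 and 2 by age), 15.64 ± 0.02 at 3 months, 15.66 ± 0.07 at 6 months, 15.49 ± 0.32 at 12 months and 15.48 ± 0.11 at 24 months. From high to low the order of ages was 6, 3, 12, 24 and 1 months. The pooled SD within ages was 0.20, and no neighbours in that order, nor its ends, differed by more than this. The limma F-test over the 5 ages gave an adjusted p of 0.821 for Smarca2.

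Against 1 month, the log2 difference of Smarca2 was 0.16 at 3 months (SE 0.15), 0.18 at 6 months (SE 0.15), 0.01 at 12 months (SE 0.15) and 0.00 at 24 months (SE 0.17). None passed, with adjusted p in limma of 0.636, 0.518, 0.995 and 0.994. All 3 samples at 3 months and all 3 at 6 months lay above the 1-month mean, but 0 lay above every 1-month sample. The 95% interval at 24 months ran from -0.36 to 0.37, so changes of about that size in either direction could not be told from none. This fit has no term for the set, and both 24-month arrays are in the second set. The interval is therefore not a bound on the changes that could be missed. The slope per doubling of age was 2.58e-04 (95% interval -0.07 to 0.07, adjusted p 0.994 in limma).

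The only set that holds 3-month and 6-month samples is the first, where Smarca2 lay at 85.3% to 93.6% of the scale and both spots of a 1-month and a 6-month array carried the saturation mark. Differences of the size above may therefore not be measurable within it. Once the set entered the model as a term, the differences of Smarca2 were -0.04 at 3 months and -0.02 at 6 months, and 0.16 and 0.18 without it. Within the first set alone they were -0.01 at 3 months and 0.0099 at 6 months. At 24 months the difference was 0.26 in that model (limma adjusted p 0.532) and 0.24 within the second set alone (0.841). The second set holds no 3-month or 6-month sample, and the first no 24-month sample.

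Smarca4 stood at 14.63, 14.004, 13.87 and 14.19 in samples 1, 2, 5 and 8 of 1 month. At 3 months it stood at 14.02, 13.93 and 14.89 in samples 2, 5 and 8, where sample 8 had the highest level of all 15. At 6 months it stood at 14.51, 14.56 and 14.21 in samples 6, 7 and 8, all above the 1-month mean.

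At 12 months Smarca4 stood at 13.95, 13.87 and 13.79 in samples 2, 3 and 7, the most even of the ages, and at 24 months at 14.05 and 14.58 in samples 1 and 2. The 12-month levels were all below the 1-month mean, and 2 of the 3 lay below every 1-month sample. They include the sample in which Smarca4 was called absent.

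The means of Smarca4 were 14.17 ± 0.33 at 1 month (SD; n = 4, 3, 3, 3 and 2 by age), 14.28 ± 0.53 at 3 months, 14.43 ± 0.19 at 6 months, 13.87 ± 0.08 at 12 months and 14.31 ± 0.37 at 24 months. From high to low the order of ages was 6, 24, 3, 1 and 12 months. The widest step between neighbours, 1 to 12 months, was smaller than the pooled SD of 0.33 within ages. The ends of the order, 6 and 12 months, lay further apart than that SD, and the limma F-test over ages gave an adjusted p of 0.560.

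Against 1 month, the log2 difference of Smarca4 was 0.11 at 3 months (SE 0.25), 0.25 at 6 months (SE 0.25), -0.31 at 12 months (SE 0.25) and 0.14 at 24 months (SE 0.28). None passed, with adjusted p in limma of 0.956, 0.651, 0.995 and 0.948. The 95% interval at 12 months ran from -0.85 to 0.24. The slope per doubling of age was -0.01 (95% interval -0.13 to 0.11, adjusted p 0.970 in limma).

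The Smarca4 differences at 6 and 12 months kept their sign in every alternative tried, other settings and fits without 1 sample alike, though all of these draw on the same samples. Some could not have moved them: a fit without a sample of an age outside the comparison, or over every gene, repeats the reported difference. At 12 months the difference ran from -0.84 to -0.15 over 31 alternatives, and at 6 months from 0.01 to 0.41 over 30, and neither passed in any. Within the first set the 12-month difference was -0.27, with 2 samples at 12 months, and within the second -0.50. That last value rests on sample 3 of 12 months alone, where Smarca4 was called absent, so its size is not a measured one. The sign at 24 months turned with the scaling, as given with the other settings further on.

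**Figure D2:**
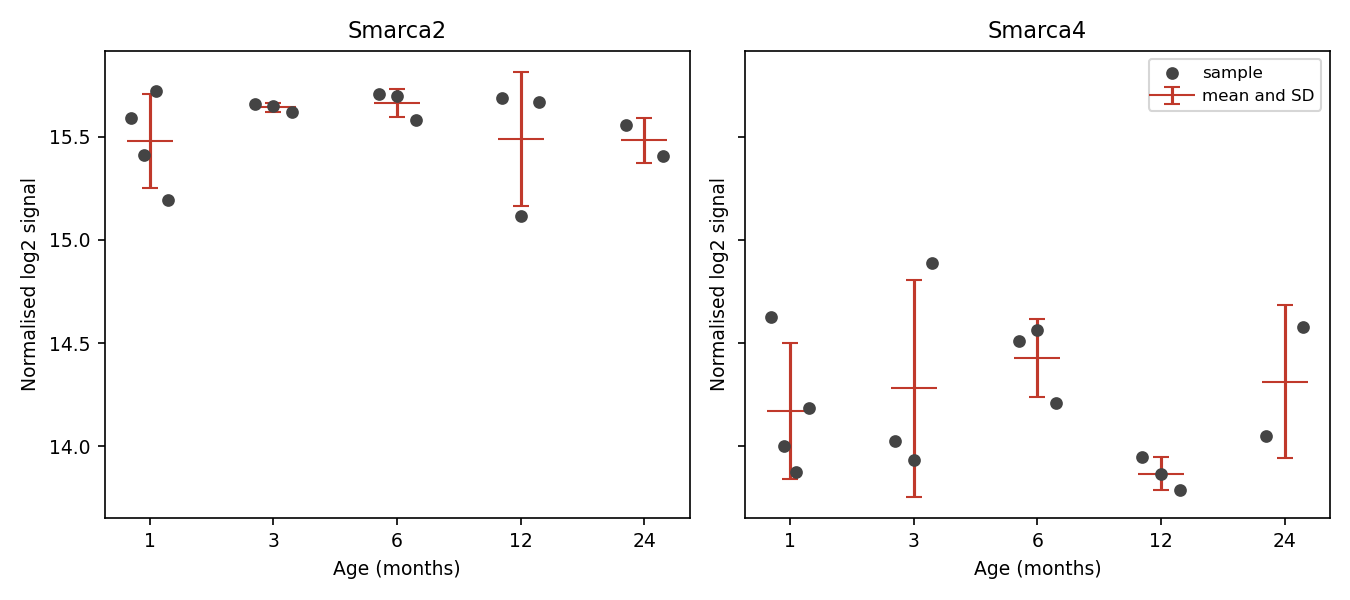
Normalised log2 signal (y axis) of Smarca2 on the left and Smarca4 on the right by age in months (x axis); grey points are samples, red bars the mean and SD over 4, 3, 3, 3 and 2 samples. The Smarca2 means lie between 15.48 and 15.66, and the lowest Smarca4 mean is 13.87 at 12 months.

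Across all genes, the array gave few age calls against which to read the pair. The limma F-test over ages called 0 of 38 tested genes (0%), with 13 at an unadjusted p under 0.05. Smarca4 ranked 22 and Smarca2 28 of 38 by p. Against 1 month, limma called 0% of genes at 3 months, 2.63% at 6 months (1 gene, Sbf1), 0% at 12 months and 0% at 24 months, with 5, 6, 2 and 6 genes at an unadjusted p under 0.05. The slope called 0%, with 4 at an unadjusted p under 0.05. Neither ATPase was among the genes under that unadjusted threshold in any of these comparisons. The median log2 difference over all tested genes was within 0.003 of 0 in each, which quantile normalisation largely sets in advance.

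For Smarca2, the difference between the sets of arrays was larger than any of its age differences in the fit above. In a limma fit over the 18 arrays with age and set as terms, and the sample as a random block for those with 2 arrays, Smarca2 differed by -0.46 (SE 0.10) in the second set relative to the first, with an adjusted p of 0.00398. Such a set difference was called for 9 of 38 genes (23.7%), and Smarca2 ranked 5 among them by p. For Smarca4 the set difference was 0.15 (SE 0.23, adjusted p 0.690 in limma).

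For the samples hybridised to 2 arrays, the levels can be compared between arrays, though these arrays also entered that fit. Their titles call the second array a technical replicate and do not say whether the RNA preparation was the same. In sample 1 of 1 month, Smarca2 stood at 15.47 on the second array, from the second set, and at 15.71 on the first array, from the first set. In sample 8 of 1 month it stood at 14.86 on the second-set array and at 15.53 on the first-set array. In sample 2 of 12 months, where both arrays are in the first set, it stood at 15.65 and 15.72. The second-set array was lower in both samples that have one, by 0.24 and 0.67.

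Smarca4 moved differently between these arrays. In sample 1 of 1 month it was 14.99 on the second-set array and 14.26 on the first-set array. In sample 8 of 1 month it was 14.11 and 14.26 on the same pair of sets, and in sample 2 of 12 months 13.92 on the second array and 13.98 on the first. The change of 0.73 in sample 1 exceeds every age difference of Smarca4 in the fit. Before normalisation, its signal on the second-set array of that sample differed from the first-set array by 0.06 on the log2 scale. The same signal differed by -0.67 between the arrays of sample 8, where the normalised level differed by -0.15. In sample 2 of 12 months the second array differed from the first by 0.31 before normalisation and by -0.06 after it.

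The balance between the ATPases was taken in each sample as the normalised log2 level of Smarca2 minus that of Smarca4. The spots hold different probes, so its absolute size is not a ratio of transcripts, and only differences between samples are read. It was 0.96, 1.41, 1.85 and 1.01 in samples 1, 2, 5 and 8 of 1 month. At 3 months it was 1.63, 1.71 and 0.73 in samples 2, 5 and 8, and at 6 months 1.199, 1.14 and 1.37 in samples 6, 7 and 8.

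At 12 months the balance was 1.74, 1.25 and 1.88 in samples 2, 3 and 7, and at 24 months 1.51 and 0.83 in samples 1 and 2. The groups overlapped throughout: the lowest of all 15 was sample 8 of 3 months and the highest value was that of sample 7 of 12 months. The Smarca2 spots of sample 5 of 1 month carried the bleeding mark, as did those of the first array of sample 2 of 12 months. How far this moved their balance was not tested, so the top of the order is not settled. The 1-month samples alone covered most of the span from lowest to highest.

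The mean balance was 1.31 ± 0.41 at 1 month (SD; n = 4, 3, 3, 3 and 2 by age), 1.36 ± 0.55 at 3 months, 1.24 ± 0.12 at 6 months, 1.62 ± 0.33 at 12 months and 1.17 ± 0.48 at 24 months. Against 1 month, it differed by 0.05 at 3 months, -0.07 at 6 months, 0.32 at 12 months and -0.14 at 24 months. The exact permutation test, two-sided, gave p of 0.971, 0.857, 0.343 and 0.667. With 3 samples against 4 the smallest p this design allows is 0.0571, and with 2 against 4 it is 0.133, so no age could have passed at 0.05.

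Over age the balance had no slope that could be told from 0. The slope was 0.01 per doubling of age, with Pearson's r of 0.0584 (permutation p 0.834) and Spearman's rho of 0.0875 (permutation p 0.756) over 15 samples. Without the 2 samples farthest in months from the median age, both of 24 months, r was 0.239. Within the second set r was 0.407 (n = 6, permutation p 0.403) and within the first 0.0965 (n = 11, permutation p 0.768). After Benjamini-Hochberg adjustment over the 5 balance tests every adjusted p was 0.971.

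In both samples that have an array in each set, the balance changed more between the arrays than between any 2 age means after quantile normalisation. In sample 1 of 1 month it was 0.48 on the second-set array and 1.45 on the first-set array, a difference of -0.97. In sample 8 of 1 month it was 0.75 on the second-set array and 1.26 on the first-set array. In sample 2 of 12 months, with both arrays in the first set, it was 1.73 and 1.74. On the signal before normalisation, the second array differed from the first in balance by -0.37 in sample 1 of 1 month, 0.24 in sample 8 of 1 month and -0.34 in sample 2 of 12 months, so neither the direction across sets nor the near match within a set held there. Within the first set, the mean balance was 1.52 ± 0.30 at 1 month (SD, n = 3), 1.36 ± 0.55 at 3 months, 1.24 ± 0.12 at 6 months and 1.81 ± 0.10 at 12 months. Within the second set it was 0.88 ± 0.48 at 1 month (SD; n = 3, 1 and 2), 1.25 in the 12-month sample and 1.17 ± 0.48 at 24 months. Thus the 24-month mean was below the 1-month mean over all arrays and above it within the second set, by 0.29.

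**Figure D3:**
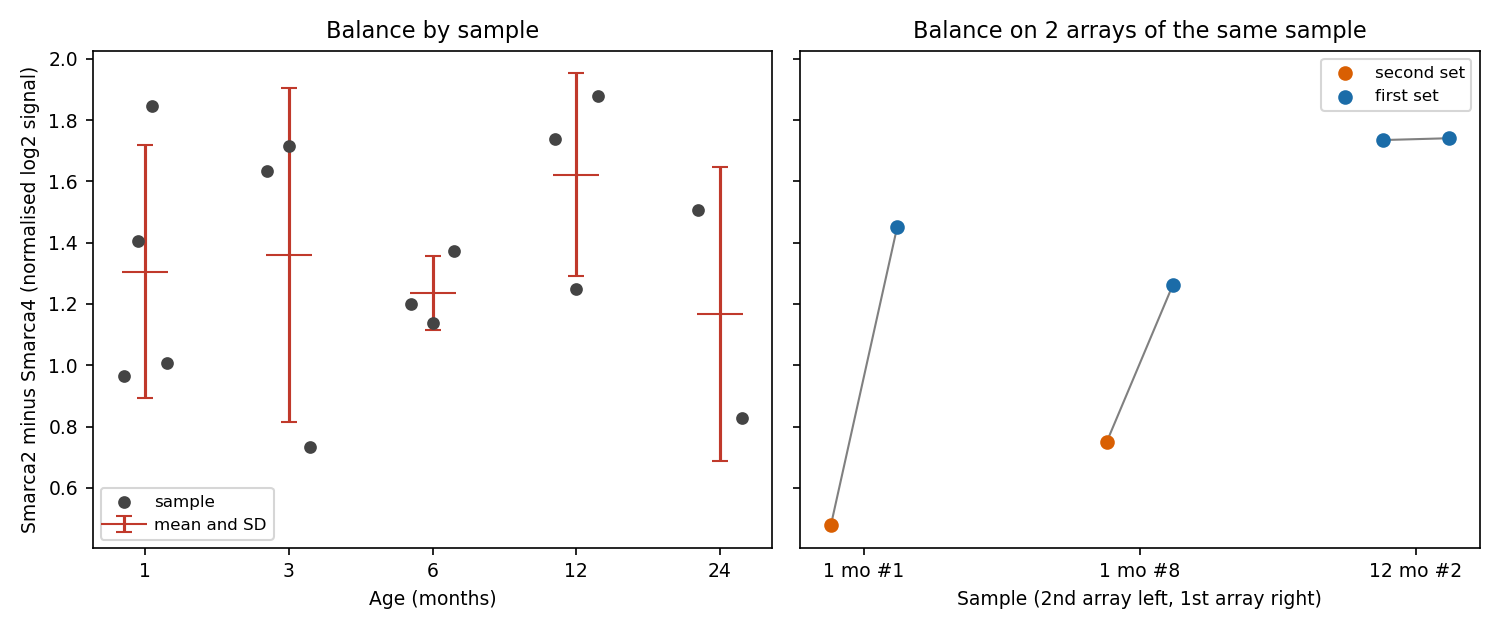
Balance, the normalised log2 signal of Smarca2 minus that of Smarca4 (y axis), by age in months on the left (grey points are samples, red bars the mean and SD) and on the 2 arrays of each sample that has a second array on the right, with the second set in orange and the first in blue. The balance is 0.48 on the second-set array and 1.45 on the first-set array of sample 1 of 1 month, a gap wider than that between any age means.

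After quantile normalisation, no relation between the levels of the ATPases across samples could be told from none. The Smarca2 signal spanned only 0.14 on the log2 scale over the first set, near the end of the scale. How far this hides a relation was not tested. Pearson's r between Smarca2 and Smarca4 was 0.118 (permutation p 0.703) and Spearman's rho -0.0964 (permutation p 0.732) over 15 samples, and r was -0.155 without the 2 samples farthest from the Smarca2 median. Within the second set r was 0.379 (n = 6, permutation p 0.545) and within the first -0.152 (n = 11, permutation p 0.629). Over the 6 relations computed, every adjusted p was 0.834. With other processing r was larger: 0.811 with arrays scaled on the housekeeping genes (permutation p 0.00206), 0.779 on the authors' own ratios (permutation p 0.00226), 0.786 with neither scaling nor background correction, a setting chosen after seeing the data (permutation p 0.00212) and 0.578 with median centring (permutation p 0.0300). The housekeeping genes that the authors' ratio rests on read 62211 to 63199 on every array, near the end of the scale, while the median gene signal ran from 8286 to 33357. Scaling on them thus shifts the arrays little, and the housekeeping, authors' ratio and unscaled values are not separate results. The part of array brightness in these correlations was not tested, and their permutation p were not adjusted.

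The sign of the 24-month differences depended on the scaling, and also on the set and the spot used. At 24 months, Smarca4 differed from 1 month by -0.61 with housekeeping scaling and -0.54 on the authors' ratios, against 0.14 after quantile normalisation and 0.36 with median centring. The balance at 24 months was 0.43 higher than at 1 month with housekeeping scaling or median centring and 0.40 higher on the authors' ratios, against -0.14 after quantile normalisation. Housekeeping scaling and median centring shift a whole array, which cancels in the balance. Their equal values were fixed in advance and are not separate results. With the scaling unchanged, the model over arrays gave 0.0555 for Smarca4 and -0.0135 for the balance at 24 months. With the set in that model, Smarca4 differed by -0.0089 and the balance by 0.26. With spot 1 alone, Smarca4 differed by -0.18 and the balance by 0.054. At 12 months the balance was above that at 1 month in 29 of 29 alternatives, by 0.13 to 0.66. Those without a sample of an age outside the comparison could not have moved it, and housekeeping scaling and median centring give the same balance. In none did it pass, though the exact test, used in all but the limma fits, could not have passed at these sample numbers. After quantile normalisation Smarca2 differed by 0.01 and Smarca4 by -0.31 at 12 months. The balance there thus largely restates the Smarca4 difference and is not a separate result. None of 32 alternatives called Smarca2 or Smarca4 in an age comparison.

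**Figure D4:**
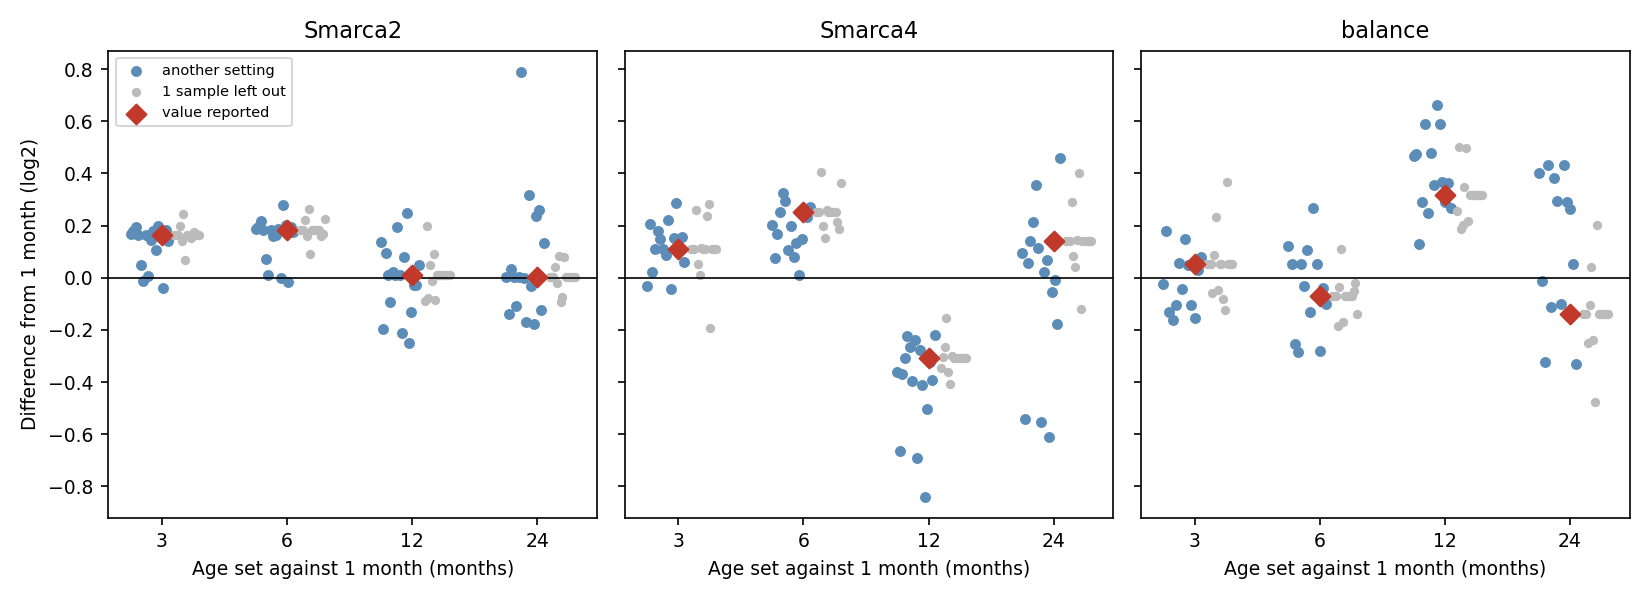
Difference from 1 month (y axis, log2) at 3, 6, 12 and 24 months (x axis) for Smarca2, Smarca4 and the balance, with the reported value as a red diamond, other processing settings in blue and fits without 1 sample in grey. Smarca4 at 12 months lies below 0 in every setting (-0.84 to -0.15), while Smarca4 and the balance at 24 months lie on both sides of 0.

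The 5 other SWI/SNF subunits on the array, of 27 listed, gave no age call either. Smarcb1, a core subunit, and Smarcc2, one of the paired scaffold subunits, were detected in all 15 samples, while Arid1a, the large DNA-binding subunit, was detected in 11. Smarcc1, the paralogue of Smarcc2, was detected in 2 samples and Arid1b, the paralogue of Arid1a, in 1. Of the 4 tested, limma called 0 higher and 0 lower in each comparison, against 0% to 2.63% of all tested genes. Over the ages, adjusted p was 0.137 for Smarcc1 and Smarcc2, 0.239 for Smarcb1 and 0.533 for Arid1a.

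At 24 months against 1 month these subunits differed by 1.52 for Smarcc1, 0.58 for Smarcc2, 0.06 for Smarcb1 and -0.76 for Arid1a, with a median of 0.32 over the 4. Smarcc1 was called present on 3 of its 36 spots, so its value is a fitted one near the background and not a fold, and it enters that median. The lowest adjusted p among them was 0.202. The set difference was -1.96 for Arid1a (adjusted p 0.00270 in limma) and 0.53 for Smarcc2 (adjusted p 0.0133). It was thus in the direction of Smarca2 for Arid1a and opposite for Smarcc2. Of the other SNF2-type ATPases listed, Smarca1, an ATPase of the ISWI class, was on the array, and it was detected in 1 of 15 samples.

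The genes whose levels ran most like Smarca2 over the 15 samples were Ezh1, a methyltransferase of PRC2 (Pearson's r 0.785), Arid1a (0.737) and Phc2, a subunit of PRC1 (0.650), among 37 tested genes. The least alike was Eed, a core subunit of PRC2, at -0.643. Ezh1 and Arid1a were each detected in 11 of the 15 samples, and Phc2 and Eed in all 15. The first 3 were all lower in the second set than in the first, by log2 differences of -1.51 for Ezh1, -1.96 for Arid1a and -0.78 for Phc2, and Eed was higher by 0.27. Each of these passed in the set comparison, with adjusted p in limma of 0.00275, 0.00270, 0.00275 and 0.00898. The points of these correlations share the arrays and their scaling, and the part of the sets in them was not tested.

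For Smarca4 the likeness was weaker. The closest genes were Sbf1, a relative of the myotubularin phosphatases (Pearson's r 0.660), Mll1, a histone H3 lysine methyltransferase (0.421), and Cbx2, a chromodomain subunit of PRC1 (0.416). Cbx2 was detected in only 2 of the 15 samples. The least alike was Rb1, the retinoblastoma tumour suppressor gene, at -0.622, detected in 9.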

How the data were processed

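Biotin-labelled amplified RNA was hybridised to a 1-colour oligonucleotide array of 128 spots, per the labels. The deposited sheets give each spot's summed intensity, its area, and the authors' marks for presence and for bleeding (read here as saturation), and a table of the authors' ratios to housekeeping spots. The scanner model is not given in the sources used here, and the 5 columns of other samples were not used.

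Intensity was divided by spot area, corrected with normexp (offset 50, on the spot signal alone, since the local background follows the spots with r of 0.756 to 0.893), quantile normalised over gene spots and put on a log2 scale computed from the deposited intensity. Spots of a gene, then arrays of a sample, were averaged. Genes detected (at least 50% of spots present) in at least 2 samples were tested with limma 3.58.1 in R 4.3.3 over 5 age groups, with Benjamini-Hochberg adjustment over 38 genes at 0.05. Balance was tested by exact permutation, and correlations with 100000 permutations. The exact tests and the limma fit were tested on simulated data. Symbols and accessions of both genes were matched to a RefSeq table naming GRCm38.p6. The probes' sequences were not used here.

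Named genes were the pair, other SWI/SNF subunits and SNF2-type ATPases (the 2 largest and 2 smallest F-test p), and, for each member, the 3 most and 1 least alike genes. Sbf1 as the single call and the set differences were named after their values were seen. The members and lists were chosen with earlier results of these data known. Alternatives covered scaling, background, gene filter, treatment of arrays, sets and replicate numbers, array weights, single spots and leaving out each sample.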

Additional observations from a re-analysis of the deposited data

How the results depend on the processing

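No alternative called Smarca2 or Smarca4 in an age comparison. None called the balance either. Its exact test of an older age against 1 month cannot reach 0.05 with all samples, so those results say nothing of its stability. The permutation test of its slope and the limma fits of the balance have no such floor. At 12 months limma gave adjusted p of 0.428 over every array, 0.501 with the set in the model and 0.826 with the replicate number as a block. Adjusted p over ages ran from 0.445 to 0.997 for Smarca2 and from 0.259 to 0.997 for Smarca4. Signs of small differences turned often, and the causes were not tested. For Smarca2, the 12-month difference turned to -0.20 on the authors' ratios, -0.093 with the first array of each sample, -0.21 with neither background correction nor scaling (chosen after seeing the data), -0.25 with housekeeping scaling, -0.029 in the model holding the set, -0.13 in the second set and -0.029 with spot 1 alone. Its 24-month difference turned to -0.14, -0.11, -0.17 and -0.18 under the first 4 of these and to -0.12 with spot 1 alone, and was 0.79 with median centring. It turned to -0.011 (first set) and -0.039 (set in the model) at 3 months, and to -5.05e-05 (local background in normexp) and -0.018 (set in the model) at 6 months. The slope of Smarca2 turned to -0.041 on the authors' ratios, -0.024 with the first arrays, -1.87e-05 without background correction, -0.047 with neither correction nor scaling, -0.053 with housekeeping scaling and -0.021 with spot 1 alone. For Smarca4, the 24-month difference turned to -0.54 on the authors' ratios, -0.55 with neither correction nor scaling, -0.61 with housekeeping scaling, -0.055 in the second set, -0.0089 in the model holding the set and -0.18 with spot 1 alone, against 0.46 with spot 2 alone. At 3 months it turned to -0.033 with array weights and -0.042 with local background, and the slope to 0.0046 with the first arrays and 0.041 with spot 2 alone. The balance at 24 months turned to 0.40 on the authors' ratios, 0.43 with median centring or housekeeping scaling, 0.38 with neither correction nor scaling, 0.30 with local background, 0.29 in the second set, 0.26 in the model holding the set and 0.054 with spot 1 alone. Median centring and housekeeping scaling cannot differ in the balance, at this age or any other. At 24 months the balance was -0.14 in the main fit. At 3 months it turned to -0.024 on the authors' ratios, -0.13 with the first arrays, -0.16 in the first set, -0.10 with median centring or housekeeping scaling, -0.043 with neither correction nor scaling and -0.15 in the model holding the set. At 6 months it turned to 0.12 on the authors' ratios, 0.055 with every array and the sample as a random block, 0.053 with median centring or housekeeping scaling and 0.11 with neither correction nor scaling. Its slope turned to -0.029 with the first arrays and -0.019 with spot 2 alone. The correlation of the pair turned to -0.15 in the first set and -0.043 with local background. At 0.779, 0.578, 0.786 and 0.811, under the settings given in the report, the correlation had an unadjusted permutation p under 0.05. It was not computed over single arrays or with a replicate number, since those are not independent samples.

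Genes called over ages numbered 9 with array weights, 2 in the first set and 1 each with median centring, in the second set and among genes detected in all samples, against 0. At 6 months they numbered 3 in the first set and 2 with the first arrays or without background correction, against 1. They numbered 0 there on the authors' ratios, with every array, every gene, median centring, neither correction nor scaling, housekeeping scaling or the set in the model. At 12 months 1 gene was called in each set alone.

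Replicate numbers are shared across ages, but the deviations of same-numbered samples correlated at -0.420 to 0.400 over 12 pairs, so the numbers were not taken to pair the samples. With the replicate number as a block, 0 genes were called at 6 months, Smarca2 differed by -0.031 at 24 months and the balance by 0.27 at 6 months. The other blocked differences kept their signs but some moved far: Smarca2 to 0.25, Smarca4 to -0.41 and the balance to 0.66 at 12 months, and Smarca4 to 0.011 at 6 months.

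Leaving out 1 sample at a time, Smarca2 ran from 0.07 to 0.24 at 3 months, 0.09 to 0.26 at 6, -0.088 to 0.20 at 12 and -0.092 to 0.084 at 24, with a slope of -0.0247 to 0.0188. Smarca4 ran from -0.19 (without sample 8 of 3 months) to 0.28 at 3 months, 0.15 to 0.41 at 6, -0.41 to -0.15 at 12 and -0.12 (without sample 2 of 24 months) to 0.40 at 24, with a slope of -0.0458 to 0.0150. The balance ran from -0.12 to 0.37 at 3 months, -0.18 to 0.11 at 6, 0.19 to 0.50 at 12 and -0.48 to 0.20 at 24, with a slope of -0.0118 to 0.0580. The correlation ran from -0.0779 (without sample 3 of 12 months) to 0.198. Genes called ran from 0 to 2 over ages and from 0 to 2 at 6 months. Where 1 sample of 24 months was left out, the other was assumed to vary like the other ages. The number of arrays and the end of the scanner scale limit what can be seen.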
